A study of Mus musculus with 3 samples.

Results

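Replication-dependent histone genes lie in clusters on mouse chromosomes 13 (Hist1) and 3 (Hist2), and the chromatin of these clusters was read here in 890 bins of 1 kb. The members are all bins of 3 windows given by position in build mm9, whatever their values: chr13:21750001-22150000 (the first Hist1 window, 400 bins), chr13:23500001-23900000 (the second Hist1 window, 400 bins) and chr3:96000001-96090000 (the Hist2 window, 90 bins). They were 890 of the genome's bins, and 825 of them held a read, beside 2285014 bins with a read in all. Chromatin immunoprecipitation with sequencing (ChIP-seq) had been done in 1 library per antibody, with no input or IgG library among the samples used here. The antibodies were against histone H3 symmetrically dimethylated at arginine 2 (H3R2me2s), against H3 carrying that mark and trimethylated lysine 4 at once (H3R2me2sK4me3, here the combined mark), and against trimethylated lysine 4 (H3K4me3). Whether each antibody also binds the states of the others was not tested here. Both arginine antibodies were raised in the submitters' laboratory, and the one against H3K4me3 came from Abcam.

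All 3 libraries shared 1 kind of cell, RAG2-/- Abelson-transformed pro-B cells of a strain given in the labels as C57BL/7, grown in RPMI1640 medium with serum. Pro-B cells stand early in B-cell development, and the Abelson oncogene keeps them dividing in culture. RAG2 is part of the recombinase that joins antigen receptor gene segments, so these cells cannot complete that step. The line is a transformed model, and whether the 3 libraries came from 1 culture was not given in the sources used here. With no mm9 gene positions at hand, B-lineage markers could not be placed on the reads and the cell type was not checked.

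Core histones H2A, H2B, H3 and H4 wrap DNA into nucleosomes, and H1, the linker histone, binds the DNA between them. Their replication-dependent genes are transcribed in S phase, when new DNA must be packaged, and their mRNAs end in a stem-loop in place of a poly(A) tail. H3K4me3 is the mark of nucleosomes beside active transcription starts. H3R2me2s lies next to it on the H3 tail and has been described at the same kind of site, where the adaptor protein WDR5 of the lysine 4 methyltransferase complexes can bind the tail. Dense clusters of short, divergently paired histone genes put many start sites within a small stretch of DNA.

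RefSeq (GRCm38.p6) lists 63 protein-coding genes of these families, 54 on chromosome 13 and 9 on chromosome 3. They are 6 H1, 17 H2A, 17 H2B, 12 H3 and 11 H4 genes. Within the stretch of chromosome 13 that the histone genes span, RefSeq also lists 77 tRNA genes and 50 other protein-coding genes, of which 36 encode vomeronasal receptors (Vmn1r). Because that build is not the one of the reads, no gene could be assigned to a peak, and peaks are named by position. Promoters of 1 gene per family are shown as examples. They were picked for many kinds of motif, by the rule given below, and need not be typical of their family. For H1f5 (minus strand), H3c4 and H4c4 (both plus strand) they are the 250 bases before the start. For H2bc8 (plus strand) they are the last 179 bases before its start. They lie within the 279 bases shared with the window of the H2A gene H2ac8, whose own start was not placed. All are on chromosome 13 of GRCm38.p6 and are written 5′ to 3′ in the direction of the gene, with capitals for matches on either strand to the letters TATAAA of a promoter's core box, to the CCAAT box, to the octamer ATTTGCAT bound by Oct factors and to GGGCGG of the GC box.
H1f5: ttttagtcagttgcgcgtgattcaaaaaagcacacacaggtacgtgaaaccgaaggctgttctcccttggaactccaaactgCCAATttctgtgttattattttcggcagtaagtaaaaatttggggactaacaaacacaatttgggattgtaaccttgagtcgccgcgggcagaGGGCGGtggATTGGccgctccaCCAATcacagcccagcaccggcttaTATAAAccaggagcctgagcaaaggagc
H2bc8: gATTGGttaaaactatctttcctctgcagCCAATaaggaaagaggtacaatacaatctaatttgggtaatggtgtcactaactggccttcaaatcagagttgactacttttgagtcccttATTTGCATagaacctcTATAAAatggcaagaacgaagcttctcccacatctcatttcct
H3c4: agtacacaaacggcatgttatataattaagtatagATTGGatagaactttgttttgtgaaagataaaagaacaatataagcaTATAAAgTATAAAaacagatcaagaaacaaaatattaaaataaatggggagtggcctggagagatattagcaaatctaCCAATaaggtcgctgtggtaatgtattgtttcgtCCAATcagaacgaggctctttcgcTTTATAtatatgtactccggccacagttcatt
H4c4: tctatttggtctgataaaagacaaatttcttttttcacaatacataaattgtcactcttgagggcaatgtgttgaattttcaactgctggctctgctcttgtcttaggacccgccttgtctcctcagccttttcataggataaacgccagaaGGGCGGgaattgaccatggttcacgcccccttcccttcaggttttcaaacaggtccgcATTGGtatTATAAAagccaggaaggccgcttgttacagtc

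A promoter sequence was at hand for 59 of the 63 genes (60 windows, since 1 gene had 2). CCAAT stood in 50 of the 60 histone windows (83.3%), beside 33.8% of the 32851 mouse promoter windows of the same length. It was in every H1, H2A and H2B window and in 27.3% of the H4 windows. TATAAA was in 46.7% of the histone windows and in 12.4% of all windows. Its match nearest to the start began at -28 in H1f5, -43 in H2bc8 and -32 in both H3c4 and H4c4. In H3c4 that match was on the opposite strand and read TTTATA in the direction of the gene. ATTTGCAT was in 35.3% of H2A and 43.8% of H2B windows, in no H1, H3 or H4 window, and in 1.60% of all windows. GGGCGG was as frequent in the histone windows (31.7%) as in all windows (32.7%), but its share ran from 0 of 16 H2B windows to 72.7% of H4 windows. Of the 17 H2A genes, 10 shared 220 to 279 bases of their 300-base window with that of an H2B gene on the opposite strand. Starts divided by a single short stretch would share sequence in this way. But H2ac23 and H2ac24 both matched H2bc23, with 267 and 233 bases, so a match alone does not place starts side by side. The histone windows had a median of 9.5 CpG and 44.8% G+C, beside 6 CpG and 52.4% G+C in all windows. These matches describe letters only, none of the 4 motifs contains another, and no reads were counted on these sequences.

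The 3 libraries held 6923765 reads (H3R2me2s), 7128852 (combined mark) and 13898471 (H3K4me3). To be called, a bin needed at least 4 times the mean bin of the genome and a Poisson tail under 1e-06, which came to 15, 16 and 25 reads. Background, averaged over bins at over 5 kb from every called bin, was 2.35, 1.86 and 2.98 reads per bin. Repeats of a read position on 1 strand were 5.22%, 2.64% and 6.20% of the reads genome-wide, and 6.61%, 3.95% and 12.1% in the windows. In bins with 200 or more H3K4me3 reads their share for H3K4me3 was 16.8% both in the windows and elsewhere. With 1 library per antibody no difference had a replicate check and no p-value was computed. Intervals are exact 95% Clopper-Pearson intervals. For read ratios they are for counting error alone, because without molecular identifiers several reads may stem from 1 molecule. For shares of bins, regions or peaks they treat these as independent, though neighbouring bins share peaks.

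The histone windows were crowded with H3K4me3. Of their 825 bins with a read, 286 (34.7%) reached 25 H3K4me3 reads, beside 2.45% of all bins with a read in the genome. The first Hist1 window held 107 of these bins, the second 141 and the Hist2 window 38. H3R2me2s was called in 168 bins, or 20.4% (genome 1.23%), and the combined mark in 204, or 24.7% (genome 1.45%). The windows thus held 0.510% of all H3K4me3 bins on 0.0361% of the bins with a read. At the limit, 17 bins of the windows had 25 to 27 H3K4me3 reads and 19 had 22 to 24.

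The stretch of chromosome 13 that separates both Hist1 windows, chr13:22150001-23500000, was sparse by comparison. It held 10 H3K4me3 bins in 1350, and 5 bins of the combined mark and 2 of H3R2me2s. Its 5 H3K4me3 regions came to 3.70 per Mb, where the windows had 46 regions or 51.7 per Mb and the rest of the genome 6.97. Of its bins, 414 held no read in any library and 69.3% held one, beside 86.5% in the rest of the genome.

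**Figure D1:**
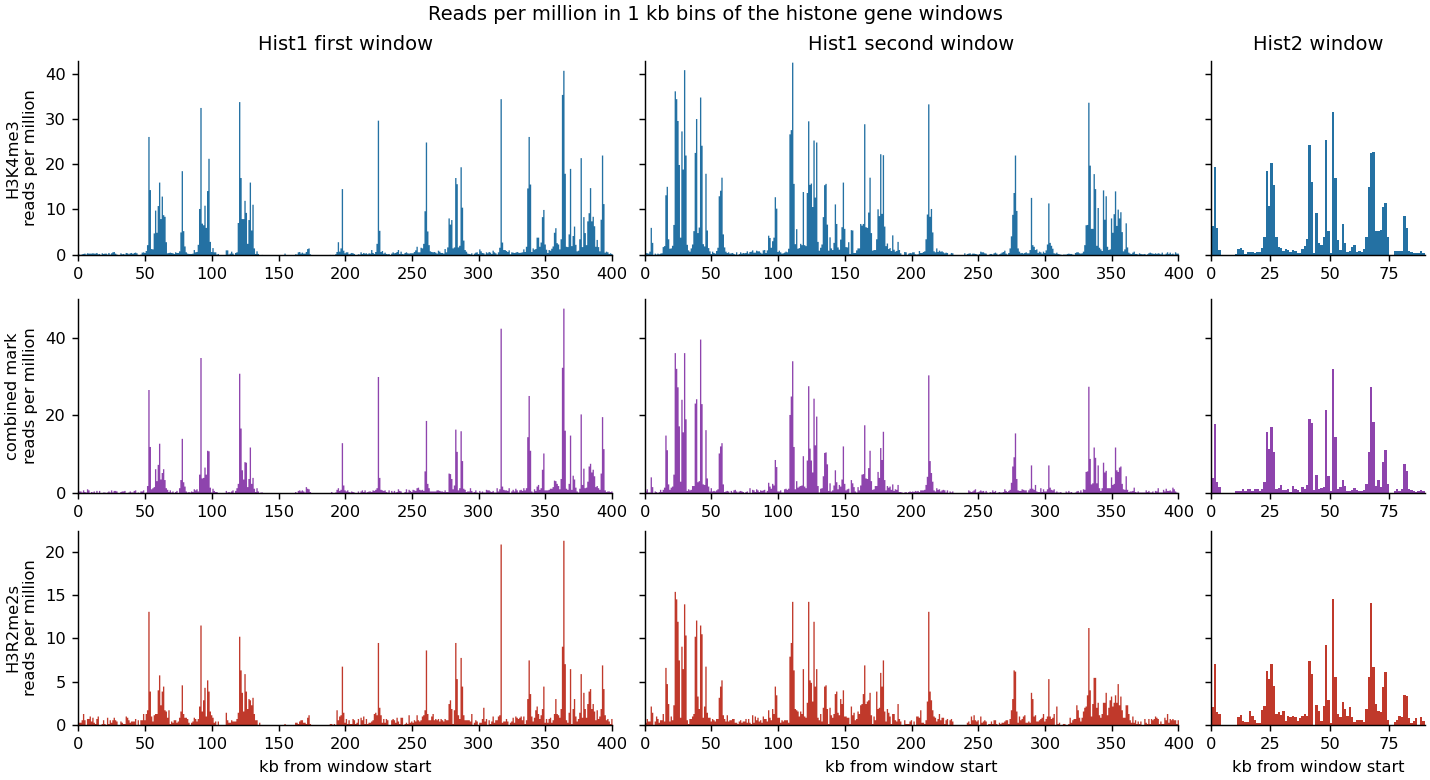
CPM in each 1 kb bin (vertical axes, linear, 1 row per antibody) along the first Hist1, second Hist1 and Hist2 windows (horizontal axes, kb from the start of each window). The 3 rows peak at the same places, and the highest bins reach 591 reads for H3K4me3, 340 for the combined mark and 148 for H3R2me2s.

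H3K4me3 bins with gaps of up to 1 kb were joined into regions, 17 in the first Hist1 window, 23 in the second and 6 in the Hist2 window. None reached past the end of a window. They were wide, with a median of 5 kb beside 3 kb for the other 18415 regions, and 12 of 46 (26.1%) spanned 10 kb or more, beside 2.16% elsewhere. Within them, local peaks stood close together. There were 76 bins with at least 100 H3K4me3 reads and more than their neighbours, or 85.4 per Mb beside 4.30 in the rest of the genome, and the median distance to the next was 5 kb beside 51 kb.

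Read levels in the windows' H3K4me3 bins were also above those of the 55753 other H3K4me3 bins. The median bin held 17 reads of H3R2me2s (14 elsewhere), 30 of the combined mark (20 elsewhere) and 97.5 of H3K4me3 (65 elsewhere). Against background these medians were 7.22, 16.1 and 32.7 times in the windows, and 5.95, 10.7 and 21.8 times elsewhere. Of the 286 bins, 44 (15.4%) were at or above the 90th percentile of all H3K4me3 bins, 266 reads, and 3 (1.05%) at or above the 99th, 516 reads. The strongest bin of the windows had 591 H3K4me3 reads and the strongest elsewhere 1379.

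The region with most reads of each antibody was chr13:23520001-23532000, near the start of the second Hist1 window. Its 12 kb held 650 H3R2me2s reads, 1554 combined-mark reads and 3396 H3K4me3 reads. Its neighbour chr13:23535001-23547000 held 438, 1027 and 2199 in the same order. Further along, chr13:23616001-23630000 held 449, 969 and 2421 reads and chr13:23608001-23614000 held 289, 679 and 1679. The strongest single H3K4me3 bin of all windows was chr13:23610001-23611000, with 591 H3K4me3 reads beside 243 of the combined mark and 99 of H3R2me2s.

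In the first Hist1 window the highest totals stood at its far end. The 18 kb region chr13:22105001-22123000 held 433, 1015 and 2211 reads, and the 19 kb region chr13:22125001-22144000, the widest of all, held 334, 764 and 2020. The bin chr13:22113001-22114000 in the former had the most H3R2me2s (148) and combined-mark reads (340) of any bin in the windows, with 566 of H3K4me3. Nearer the start of that window, chr13:21869001-21881000 held 322, 702 and 1922 reads and chr13:21839001-21849000 held 242, 587 and 1585. In the Hist2 window the 18 kb region chr3:96039001-96057000 led with 423, 912 and 2178 reads, followed by chr3:96065001-96075000 with 309, 612 and 1474. Each of these large regions was rich in all 3 libraries.

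Parts of the windows held no reads at all. There were 65 such bins, 47 of them in the first Hist1 window, 10 in the second and 8 in the Hist2 window. Such bins were less frequent than elsewhere, as 92.7% of the windows' bins held a read, beside 86.5% in the rest of the genome. The longest runs were 16 kb at chr13:21888001-21904000, 14 kb at chr13:21924001-21938000, 8 kb at chr13:23731001-23739000 and 6 kb at chr3:96004001-96010000. Within H3K4me3 bins, 172 of 2860 parts of 100 bp (6.01%) held no read of any library, beside 4.54% elsewhere. By class of H3K4me3 reads the shares were 6.22% and 6.31% at 25 to under 50, 7.04% and 4.60% at 50 to under 100, 8.33% and 3.48% at 100 to under 200, and 2.80% and 1.47% at 200 or more. How reads from near-identical copies were mapped is not given in the sources used here, and counts beside these gaps may be low for that reason, which was not tested.

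Bins between the peaks also held more reads than background. In the 368 bins of the windows more than 2 kb from an enriched bin, reads were 1.47 times (H3R2me2s), 1.68 times (combined mark) and 2.18 times (H3K4me3) the genome background. In the stretch between the Hist1 windows the same measure was 0.613, 0.672 and 0.707. Of the 3 libraries, H3K4me3 thus stood furthest above background in the windows and least below it in the stretch that separates them.

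The balance of the 3 marks asks whether the arginine mark and the combined mark keep the same proportion to H3K4me3 in the histone gene windows as at other sites. Ratios are of reads scaled to the mapped reads of each library (CPM), so a ratio has no meaning as a molar proportion and serves only to compare sites. In the windows H3R2me2s to H3K4me3 was 0.360 (0.351 to 0.369), below 0.400 over all other H3K4me3 bins. The combined mark to H3K4me3 was 0.762 (0.748 to 0.776), below 0.812. H3R2me2s to the combined mark was 0.472 (0.459 to 0.485), below 0.493. Histone windows over other bins, the 3 ratios were 0.899 (0.877 to 0.921), 0.938 (0.921 to 0.956) and 0.958 (0.931 to 0.984).

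Since the ratios move with H3K4me3 level and the windows are richer in strong bins, bins of like level were compared. For H3R2me2s to H3K4me3 the windows stood at 0.488 (0.446 to 0.534) in bins with 25 to under 50 H3K4me3 reads, beside 0.512 elsewhere. They stood at 0.355 (0.331 to 0.380) beside 0.387 at 50 to under 100, at 0.334 (0.317 to 0.353) beside 0.365 at 100 to under 200, and at 0.357 (0.346 to 0.369) beside 0.394 at 200 or more. The windows were lower in all 4 classes, by more than counting error in the upper 3.

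For the combined mark the weakest class showed no deficit, with 0.587 (0.540 to 0.636) in the windows and 0.580 elsewhere. From there the gap opened: 0.577 (0.546 to 0.611) beside 0.632, 0.664 (0.638 to 0.692) beside 0.779, and 0.861 (0.841 to 0.881) beside 0.945 in the strongest bins. In the windows the ratio did not rise from the weakest class to the next, where it rose elsewhere, and it was higher in each of the following classes in both sets. In the upper 3 classes it stood lower in the windows by more than counting error. H3R2me2s to the combined mark fell with level from 0.832 to 0.415 in the windows and from 0.882 to 0.417 elsewhere.

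**Figure D2:**
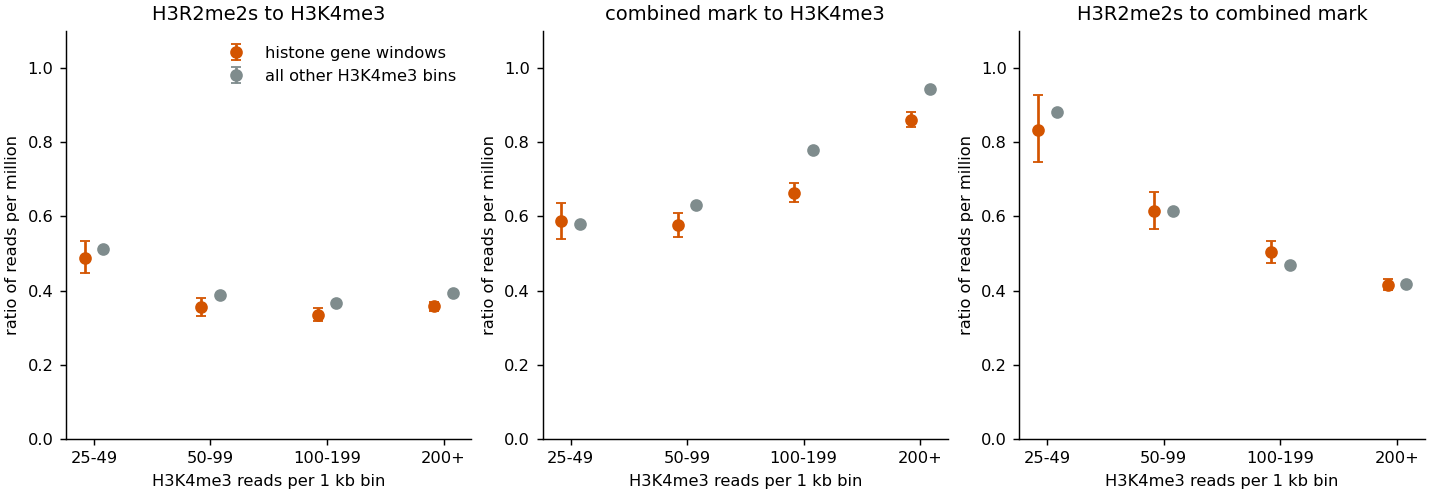
Ratio of CPM (vertical axes, linear from 0) by class of H3K4me3 reads per 1 kb bin (horizontal axes) for the 3 pairs of antibodies, in the histone gene windows (286 bins) and all other H3K4me3 bins (55753). Points are ratios of summed reads and bars are 95% counting intervals. Both ratios to H3K4me3 lie lower in the windows in the upper 3 classes, while H3R2me2s to the combined mark nearly coincides in the strongest class.

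Weighted to the windows' own classes, other bins would give 8090 H3R2me2s reads where 7390 were counted, a ratio of observed to expected of 0.913 (0.891 to 0.936). For the combined mark 17853 were expected and 16121 counted, or 0.903 (0.887 to 0.920). H3R2me2s to the combined mark then came to 1.01 (0.980 to 1.04), so that its lower value over all bins was not seen in bins of like level. By window, H3R2me2s to H3K4me3 was 0.889 (0.852 to 0.928) of expectation in the first Hist1 window, 0.911 (0.880 to 0.942) in the second and 0.990 (0.926 to 1.06) in the Hist2 window. The combined mark to H3K4me3 was 0.925 (0.897 to 0.954), 0.878 (0.856 to 0.900) and 0.945 (0.899 to 0.994). The Hist2 window, with 38 bins, therefore did not stand below other sites for H3R2me2s beyond counting error.

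Whole chromosomes give a scale for these deviations. Over 20 chromosomes, each with at least 1000 other H3K4me3 bins, observed over expected ran from 0.914 (chromosome X) to 1.03 for H3R2me2s to H3K4me3 and from 0.969 to 1.09 for the combined mark. The windows' 0.913 lay at the level of chromosome X in the first, and their 0.903 below all 20 in the second. Chromosome 13 outside the windows was at 0.970 and 0.972, and chromosome 3 at 0.986 and 0.969. A chromosome averages over more bins than the windows' 286, so this is a scale and not a test. Chromosome Y, with few bins, was left out after its value had been seen.

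Empty parts of bins moved with the strength class, so the balance was also taken over the 190 H3K4me3 bins of the windows with a read in every 100 bp. Observed over expected was then 0.910 for H3R2me2s to H3K4me3, 0.911 for the combined mark to H3K4me3 and 0.996 for H3R2me2s to the combined mark. Both ratios to H3K4me3 thus stayed close to their values over all bins. The H3K4me3 library has its own antibody, depth and preparation, and with 1 library each, a lower level of both arginine marks and a higher yield of H3K4me3 at these sites cannot be told apart.

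Calls followed level. H3R2me2s was called in 164 of the 286 H3K4me3 bins, or 57.3% (51.4 to 63.1), beside 46.8% of all H3K4me3 bins in the genome. The combined mark was called in 204, or 71.3% (65.7 to 76.5), beside 58.6%. Without the second Hist1 window the gap to the other H3K4me3 bins fell from 10.6 to 5.01 percentage points (-3.43 to 13.4) for H3R2me2s and from 12.8 to 9.04 (0.769 to 16.6) for the combined mark. At matched H3K4me3 classes these gaps fell away, to -1.26 percentage points for H3R2me2s and 0.617 for the combined mark. All 75 bins with 200 or more H3K4me3 reads were called for both, with a lower limit of 95.2% for bins taken as independent. Other bins of that class were called in 99.9% for H3R2me2s and 100% for the combined mark, so the windows did not differ there. In the weakest class 6 of 74 (8.11%, 3.03 to 16.8) were called for each, beside 8.27% elsewhere for H3R2me2s and 12.1% for the combined mark.

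Among the 290 bins of the windows called for any antibody, 154 (53.1%) were called for all 3, beside 41.2% elsewhere. Another 72 (24.8%, beside 36.1% elsewhere) were called for H3K4me3 alone. The combined mark with H3K4me3 was called in 50 (17.2%, beside 15.1%), and H3R2me2s with H3K4me3 in 10 (3.45%, beside 3.75%). No bin was called for the combined mark without H3K4me3, either alone or with H3R2me2s (upper limit 1.26% for each). Elsewhere these shares were 0.443% and 0.0552%, both within that limit, so their absence does not set the windows apart. The 4 bins called for H3R2me2s alone (1.38%, beside 3.36% elsewhere) all lay in the second Hist1 window. Of these, chr13:23861001-23862000 (16 H3R2me2s and 24 H3K4me3 reads) and chr13:23848001-23849000 (20 and 18 reads) touched an H3K4me3 region. The other pair, chr13:23808001-23809000 (15 H3R2me2s, 3 combined-mark and 8 H3K4me3 reads) and chr13:23823001-23824000 (16, 3 and 9 reads), stood apart from any, at 1 read or less above the H3R2me2s limit.

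Of the 46 regions, 42 (91.3%, 79.2 to 97.6) held a bin called for H3R2me2s and 42 a bin called for the combined mark, beside 63.2% and 68.4% of other regions. All 39 regions wider than 1 kb held a call for each mark, and of the 7 regions of 1 kb 3 did for each. Regions chr13:21944001-21945000, chr13:22003001-22004000 and chr3:96060001-96061000, with 26 to 40 H3K4me3 reads, held neither. Elsewhere, regions of 2 to 5 kb held an H3R2me2s call in 79.0% and a combined-mark call in 85.0% of cases, where all 17 regions of that width in the windows held both.

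Single regions departed from the common balance in both directions. Their ratios were not matched for H3K4me3 level. Over regions with at least 30 reads of each antibody of a pair, the median ratio of H3R2me2s to H3K4me3 was 0.348 over 39 regions of the windows and 0.399 over 10434 others. For the combined mark it was 0.722 over 41 regions and 0.801 over 11641 others. Of the window regions, 28 of 39 lay below the median of other regions for H3R2me2s, 29 of 41 for the combined mark and 20 of 39 for H3R2me2s to the combined mark. The SD of the log2 ratio was 0.26 for H3R2me2s to H3K4me3 and 0.27 for the combined mark, where counting alone gives 0.15 and 0.13. Over other regions the SD was 0.30 and 0.33, where counting gives 0.19 and 0.16. Regions thus varied more than counting error in the windows as elsewhere, and the counting intervals of the pooled ratios do not hold that spread.

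Among these regions the highest ratios to H3K4me3 were at chr13:22066001-22068000, a 2 kb region that stands by itself in the first Hist1 window. It held 147 H3R2me2s, 315 combined-mark and 518 H3K4me3 reads, of which 145, 303 and 479 lay in a single bin. H3R2me2s to H3K4me3 was 0.570 (0.471 to 0.685) there and the combined mark to H3K4me3 was 1.19 (1.03 to 1.37). The lowest H3R2me2s stood only a short way along, at chr13:22085001-22089000, with 102, 369 and 811 reads. Its H3R2me2s to H3K4me3 was 0.252 (0.203 to 0.311), while its combined mark to H3K4me3, 0.887 (0.782 to 1.00), was above the windows' median. The H3R2me2s intervals of these neighbours did not overlap. A higher ratio, 0.832 with a lower bound of 0.443, came from 17 H3R2me2s and 41 H3K4me3 reads at chr13:23689001-23690000, too few to place it.

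By the upper bound of the interval, the lowest combined-mark ratios came from other regions. They were 0.574 (0.509 to 0.646) at chr13:21806001-21816000, from 191, 359 and 1219 reads, 0.511 (0.392 to 0.660) at chr13:23641001-23644000, from 61, 76 and 290 reads, and 0.545 (0.450 to 0.657) at chr13:23843001-23847000, from 70, 144 and 515 reads. Lower ratios than the first with wider intervals stood at chr13:23789001-23792000, 0.544 (0.407 to 0.719), and at chr13:23801001-23805000, 0.557 (0.424 to 0.724). The region chr13:23843001-23847000 was also low for H3R2me2s, at 0.273 (0.209 to 0.351). At chr13:23641001-23644000 H3R2me2s was not low, with 0.422 (0.315 to 0.558), so the combined mark and H3R2me2s parted there. The richest regions of the second Hist1 window, chr13:23520001-23532000 and chr13:23535001-23547000, had combined-mark ratios of 0.892 (0.840 to 0.948) and 0.911 (0.845 to 0.981), well above the windows' median. Over other bins this ratio rose with H3K4me3 level, from 0.580 at 25 to under 50 reads to 0.945 at 200 or more. Regions were not matched for that level, and its part in these contrasts was not tested.

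In the Hist2 window the 5 largest regions spanned a narrow range. H3R2me2s to H3K4me3 ran from 0.332 (0.255 to 0.426) at chr3:96000001-96003000 to 0.469 (0.334 to 0.648) at chr3:96081001-96083000, with overlapping intervals. The combined mark to H3K4me3 ran from 0.763 (0.636 to 0.912) to 0.892 (0.690 to 1.15) at the same regions. The window's widest region, chr3:96039001-96057000, was at 0.390 (0.350 to 0.433) and 0.816 (0.755 to 0.882), close to the values over all other H3K4me3 bins.

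**Figure D3:**
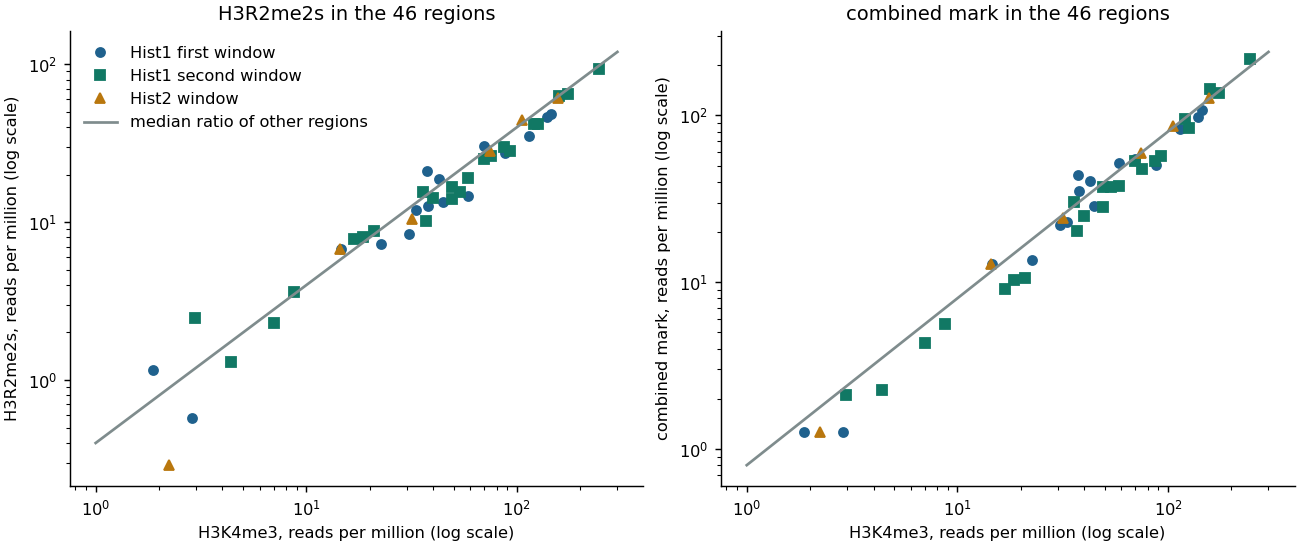
CPM of H3R2me2s (left) and of the combined mark (right) against H3K4me3 in the 46 regions of the histone gene windows, all axes on a log scale, with symbols for the 3 windows. The line is the median ratio over other regions, 0.399 and 0.801. Regions follow the line over their whole range, with 28 of 39 and 29 of 41 well-counted regions below the median.

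Levels of the 3 marks rose together from bin to bin. Over the 286 H3K4me3 bins of the windows Spearman's rho was 0.904 for H3R2me2s and H3K4me3, 0.959 for the combined mark and H3K4me3, and 0.904 for H3R2me2s and the combined mark. Over the other bins it was 0.838, 0.920 and 0.833. These are descriptions, since neighbouring bins share peaks and all bins share the same 3 libraries.

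Peaks of the windows stood lower at the summit than other strong peaks and higher at the flanks. Summits were found over 300 bp in the 76 local peak bins. H3R2me2s and H3K4me3 summits lay within 200 bp of each other in 61 of 76 (80.3%, 69.5 to 88.5), beside 82.3% elsewhere, and combined-mark and H3K4me3 summits in 68 of 76 (89.5%, 80.3 to 95.3), beside 89.1%. At the summit H3R2me2s stood at 31.0 times background, the combined mark at 95.6 and H3K4me3 at 131, beside 32.8, 107 and 135 at other peaks. At 1500 to 2000 bp the order turned, with 6.85, 17.1 and 30.4 times background in the windows and 5.65, 13.6 and 21.1 elsewhere. Neighbouring peaks stand nearer to these flanks in the windows, at the median spacing of 5 kb, and their part in the flanks was not tested.

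**Figure D4:**
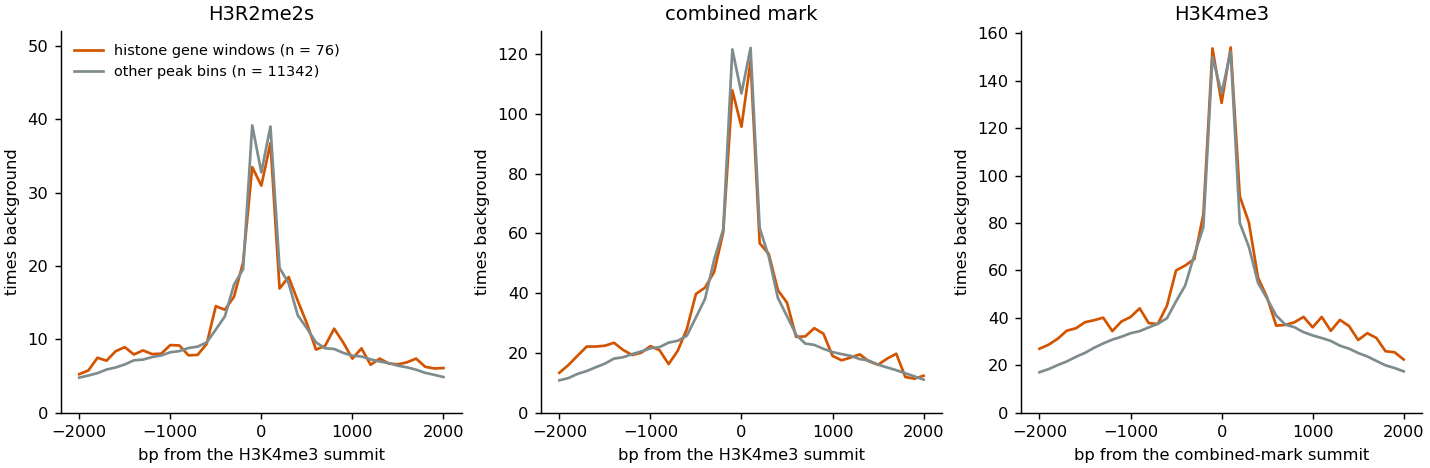
Mean reads as a multiple of background (vertical axes, linear) by distance in bp from the summit (horizontal axes), around 76 peak bins of the histone gene windows and 11342 others. H3R2me2s and the combined mark are centred on H3K4me3 summits and H3K4me3 on combined-mark summits, so that no library is centred on itself. Within 500 bp the curves cross. At -100 bp the windows lie lower for H3R2me2s (33.5 beside 39.2) and the combined mark (108 beside 122) but not for H3K4me3 (154 beside 150). At -500 bp they lie higher for all 3 libraries, and beyond 1000 bp they lie higher for H3K4me3. At 1500 to 2000 bp their mean is higher for all 3 libraries. The notch at 0 is seen in both sets.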

How the data were processed

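The authors deposited 1 mapped 39-base read per line for each of 3 ChIP-seq libraries, per the file contents, so read counts are unscaled whole numbers. Build mm9 is per the submitters' processing notes. The aligner and the treatment of repeated sequence are not given in the sources used here. Per the labels' protocols, libraries had 15 PCR cycles and fragments of 100 to 500 bp. Reads were shifted downstream by 75 bp before counting per 1 kb bin with Python 3.11.15, numpy 2.4.6 and scipy 1.17.1 (matplotlib 3.10.9 for figures). Calling limits, merging and background are as given above. Depth was 6923765, 7128852 and 13898471 reads. Expected reads came from other bins of the same 4 classes of H3K4me3 reads. Calls and ratios were run on simulated bins with independent Poisson counts, which lack the spread between regions seen in these data.

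Named regions were, per window, the 5 with most H3K4me3 reads, then the 3 highest and 3 lowest of each ratio (at least 30 reads in both libraries together, ranked by the interval bound nearest to 1) and the widest; other regions and bins were named after their values were seen, as were the 4 bins without H3K4me3. Members and lists were chosen with earlier results of these data known. The promoters shown had most kinds of motif in their family, and testis forms were then left out and the H2B gene set as partner of an H2A gene after a first output was seen. Promoter and gene lists are RefSeq tables of GRCm38.p6, and no coordinates were taken from them. Settings tried were read shift, repeated reads, equal depth, other H3K4me3 limits, background, windows left out and level classes.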

Additional observations from a re-analysis of the deposited data

How the results depend on the processing

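There were 22 settings, 8 of them chosen after seeing the data, and each recomputed only some of the results. Counts of called bins and of regions in the windows were recomputed for read shift, repeated reads, equal depth and other H3K4me3 limits. Regions were also counted with only touching bins merged. All these counts stayed within 1.5 times. The ratio of H3R2me2s to H3K4me3, windows over other bins, stayed below 1 in every setting that recomputed it. It moved from 0.899 to 0.859 with an H3K4me3 limit of 15 reads and to 0.925 net of local background. The combined mark to H3K4me3, 0.938 over all bins, was 0.916 at a limit of 50 reads and 0.966 without the second Hist1 window. In bins of the same H3K4me3 class it was 0.903, and within classes it was 0.906 with reads not moved, 0.906 with reads moved 150 bp, 0.910 with 1 read kept per position and strand, 0.907 at equal depth, 0.901 with 18 classes, 0.902 net of local background and 0.911 in bins with a read in every 100 bp.

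H3R2me2s to the combined mark, 0.958 over all bins, turned to 1.01 within classes, and to 1.01 (reads not moved), 1.01 (moved 150 bp), 1.00 (1 read kept), 1.01 (equal depth), 1.01 (18 classes), 1.01 (local background) and 0.996 (fully covered bins). It was 0.997 at a limit of 50 reads and 0.900 at 15 reads. The gap in called share, 10.6 percentage points for H3R2me2s and 12.8 for the combined mark, was not kept in bins of like H3K4me3 level. Within classes it was -1.26 and 0.617, and then -1.70 and 0.468 with reads not moved, 0.263 and 1.35 moved 150 bp, -0.983 and 0.610 with 1 read kept, -1.29 and 0.925 at equal depth, and -2.36 and -0.698 with 18 classes. At a limit of 50 reads it was 2.05 and 3.74, and at 15 reads 18.8 for the combined mark. For the other moves the cause was not tested.

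Leaving out each window in turn gave 0.887 to 0.910 for H3R2me2s to H3K4me3 and 0.928 to 0.966 for the combined mark. It gave 0.936 to 0.981 for H3R2me2s to the combined mark, and gaps in called share of 5.01 to 15.9 percentage points for H3R2me2s and 9.04 to 14.6 for the combined mark. Of 69 values of named regions, 60 moved beyond their interval net of genome background, which also rescales the libraries, and 9 with 1 read kept. No paired analysis was possible because there was 1 library for every antibody, which also means that none could be left out. The median H3K4me3 bin of the windows held 17 H3R2me2s reads against a limit of 15, and calls at another H3R2me2s depth were not tested.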
